A study of Mus musculus with 12 samples.

Results

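Matricellular proteins are secreted into the matrix around cells, where they bind collagen and cell surface receptors and tune adhesion and growth factor signals rather than bearing load themselves. Crosslinking enzymes act on the load-bearing fibres: lysyl oxidase oxidises lysine side chains of collagen and elastin so that neighbouring chains bond. In fat, stromal cells around the adipocytes make most of this matrix, and CCN2 is a classic product of mechanically stretched or TGF beta treated fibroblasts. The genes described here are Ccn2 and Ccn1, which encode integrin-binding proteins of the CCN family, the thrombospondins Thbs1 and Thbs2, Postn (periostin), Sparc, the lysyl oxidase Lox, and Aebp1, whose secreted form binds collagen. They were chosen by name from earlier results of these same arrays, as genes far higher in plated stromal cells or different between fat depots, and every probe set assigned to 1 of these symbols alone was taken. This gave 9 probe sets, out of 12422 on the array, for 7 of the 8 genes, among 8251 genes that have such a probe set. The array's only probe set listing Thbs1 also lists a second gene, so no Thbs1 value is given.

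The study measured messenger RNA on 12 Affymetrix arrays in 4 groups of 3. All groups came from male C57BL/6 mice, an inbred laboratory strain, aged 42 to 49 days, with no other genotype or treatment given in the labels. The groups were floating adipocytes of subcutaneous flank fat, floating adipocytes of intraabdominal (epididymal) fat, and the stromo-vascular fraction (SVF) of each of these depots. The SVF is the pellet of preadipocytes, fibroblasts, vessel cells and immune cells left after the fat cells float off collagenase-digested tissue. It was plated in medium with 10% serum, and RNA was taken 16 h later, so cell fraction and culture cannot be told apart. Tissue of 10 mice was pooled by depot. Nothing says whether the 3 arrays of a group came from separate pools, so the errors below measure the spread between these arrays, which may be technical.

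Adipocyte markers were high in the adipocyte groups and most fibroblast markers in SVF, but endothelial markers were not high in SVF. Summed signal of 8 adipocyte markers was 446474 to 580661 on adipocyte arrays and 5482 to 7402 on SVF arrays. That of 12 preadipocyte and fibroblast markers was 48013 to 82317 on adipocyte arrays and 242680 to 371029 on SVF arrays. Of these 12, limma called 9 higher and 1 lower in SVF of subcutaneous fat, and 10 higher and 1 lower in intraabdominal fat. Although the SVF is named for its vessel cells, 10 of 11 endothelial markers were called lower in SVF than in adipocytes in each depot (limma), with summed signal of 24443 to 43001 on adipocyte arrays and 10433 to 17728 on SVF arrays. Their part in the differences between fractions was not tested. The ratio of 3' to 5' signal of the actin control, which rises as RNA degrades, was 1.71 to 3.10 on adipocyte arrays and 1.11 to 1.24 on SVF arrays, and therefore moved with the fraction. The part of RNA quality in these differences was not tested beyond a fit with the ratio as a covariate. In bulk RNA, fewer cells of a type and less RNA per cell cannot be told apart.

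Upstream sequences were taken from the RefSeq promoter table (build GRCm38.p6), which was matched for 5 of the 7 measured genes, with 6 start sites because Postn has 2. The window was the 250 bases before the start site. Searched on both strands, the windows were read for the letters CATTCC, which TEAD, the partner of the mechanosensitive YAP and TAZ coactivators, is known to bind. They were also read for TGANTCA, the site of the AP-1 factors, for TATAAA, the core of many start sites, for the SP1 letters GGGCGG and for the CArG box of serum response factor by name. The following windows are shown for 3 genes that were higher in SVF and for Sparc, which was not. Capitals mark every match, and in Ccn1 the TATAAA and GGGCGG letters adjoin without overlap.

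Ccn1, chr3:145649986-145650235, minus strand: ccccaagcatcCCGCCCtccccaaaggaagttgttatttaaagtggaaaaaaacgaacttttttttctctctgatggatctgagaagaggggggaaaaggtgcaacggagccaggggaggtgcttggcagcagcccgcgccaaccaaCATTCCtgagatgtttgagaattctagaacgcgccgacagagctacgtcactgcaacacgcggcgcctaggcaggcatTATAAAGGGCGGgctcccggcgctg
Thbs2, chr17:14694263-14694512, minus strand: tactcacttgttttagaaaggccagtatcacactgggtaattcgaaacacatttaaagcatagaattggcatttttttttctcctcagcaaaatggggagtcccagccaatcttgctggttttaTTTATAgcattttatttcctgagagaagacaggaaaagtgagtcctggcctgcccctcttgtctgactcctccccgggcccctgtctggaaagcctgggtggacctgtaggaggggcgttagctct
Postn, chr3:54360857-54361106, plus strand: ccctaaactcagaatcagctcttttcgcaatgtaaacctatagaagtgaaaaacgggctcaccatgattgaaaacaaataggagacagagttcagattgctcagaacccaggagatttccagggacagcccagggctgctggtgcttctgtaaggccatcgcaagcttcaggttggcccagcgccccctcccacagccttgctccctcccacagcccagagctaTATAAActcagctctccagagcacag
Sparc, chr11:55420081-55420330, minus strand: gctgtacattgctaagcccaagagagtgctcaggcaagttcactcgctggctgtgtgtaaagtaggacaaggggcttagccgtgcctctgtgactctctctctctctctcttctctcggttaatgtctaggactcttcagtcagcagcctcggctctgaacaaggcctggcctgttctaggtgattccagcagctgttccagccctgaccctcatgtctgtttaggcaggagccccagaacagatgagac

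Ccn1 held CATTCC at -103 to -98 from its start site, letters found in 12.6% of the 32851 promoter windows of the table, and TATAAA at -25 to -20. Postn held TATAAA at -26 to -21, and Thbs2 held it on the opposite strand at -126 to -121, against 12.4% of all windows. GGGCGG, present in 32.7% of all windows, was found 2 times in Ccn1. The Sparc and Aebp1 windows and the other Postn window held none of these letters, and no window held TGANTCA (6.75% of all) or a CArG box (1.47% of all). A match of letters is a description and no evidence of binding.

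Ccn2 went from near the bottom of the arrays to near the top. Its MAS5 signal, a linear brightness scaled to the same level on all arrays, was 21, 189 and 52 in subcutaneous adipocytes and 189, 26 and 148 in intraabdominal adipocytes. The same probe set (93294_at) read 63978, 63807 and 56939 in subcutaneous SVF and 66021, 54415 and 64679 in intraabdominal SVF. Every SVF array thus lay far above every adipocyte array, and the depots overlapped within each fraction. Within an array the Ccn2 signal ranked between percentiles 1.84 and 34.8 of all probe sets in adipocytes and between 99.5 and 99.9 in SVF. Since no detection calls were available, the adipocyte readings cannot be told apart from background. On the scale of log2(signal + 40.2), used throughout because the added constant steadies dim signals, SVF exceeded adipocytes by 9.14 ± 0.44 (SE) in subcutaneous and 8.76 ± 0.44 in intraabdominal fat, or 564-fold and 433-fold. These folds depend on the constant for so dim an adipocyte signal. The SVF depots differed by 0.00 ± 0.44, with a 95% interval from -0.94 to 0.94. This SE rests on a spread shared by the 4 groups. The SD (log2) was 0.97 and 0.96 in the adipocyte groups but 0.10 and 0.15 in SVF. Whether so bright a probe set could register a further rise was not tested.

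Ccn1, a close relative that also binds integrins, differed far less between the fractions, and adipocytes carried it too. It read 3339, 5812 and 6032 in subcutaneous and 2748, 2452 and 4144 in intraabdominal adipocytes. In SVF the readings were 13563, 14767 and 13307 (subcutaneous) and 10942, 10182 and 10582 (intraabdominal). All SVF arrays lay above all adipocyte arrays, and in SVF all 3 subcutaneous arrays lay above the intraabdominal ones, whereas in adipocytes the depots overlapped. The differences were 1.49 ± 0.21 (2.82-fold) between the fractions of subcutaneous fat and 1.79 ± 0.21 (3.45-fold) between those of intraabdominal fat. Subcutaneous minus intraabdominal, the difference was 0.68 ± 0.21 in adipocytes and 0.39 ± 0.21 in SVF. The overlap of the adipocyte arrays thus does not mark a smaller depot difference there.

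Thbs2, a thrombospondin known to restrain vessel growth through the receptors CD36 and CD47, was dim in adipocytes and differed by depot in SVF. Adipocyte readings were 114, 325 and 139 in subcutaneous and 114, 119 and 288 in intraabdominal fat, and these overlapped. They ranked between percentiles 18.2 and 39.8 of their arrays and, like those of Ccn2, cannot be told apart from background. A depot difference in adipocytes could therefore have been missed. SVF readings were 32108, 30990 and 26877 in subcutaneous and 14352, 11187 and 10070 in intraabdominal fat, with no overlap. Thbs2 was 2.54-fold higher in subcutaneous than in intraabdominal SVF (log2 difference 1.35 ± 0.32), while the adipocyte depots differed by 0.11 ± 0.32. Between fractions the log2 difference was 7.12 ± 0.32 in subcutaneous and 5.88 ± 0.32 in intraabdominal fat.

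Postn, periostin, which binds type I collagen and helps the protease BMP1 activate lysyl oxidase, had a different layout. Its depots differed in adipocytes and not detectably in SVF. Subcutaneous adipocytes read 3795, 3224 and 4042 and intraabdominal adipocytes 1650, 1822 and 2297. The SVF arrays read 22819, 22351 and 20000 (subcutaneous) and 25662, 21354 and 20748 (intraabdominal). The adipocyte depots did not overlap and differed by 0.93 ± 0.14 (1.91-fold), and the SVF depots overlapped and differed by -0.05 ± 0.14. The difference between these depot differences was 0.98 ± 0.20 for Postn and -1.24 ± 0.45 for Thbs2. The Thbs2 value rests on adipocyte readings that cannot be told apart from background. The fractions differed by 2.55 ± 0.14 (5.85-fold) in subcutaneous and 3.53 ± 0.14 (11.6-fold) in intraabdominal fat.

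**Figure D1:**
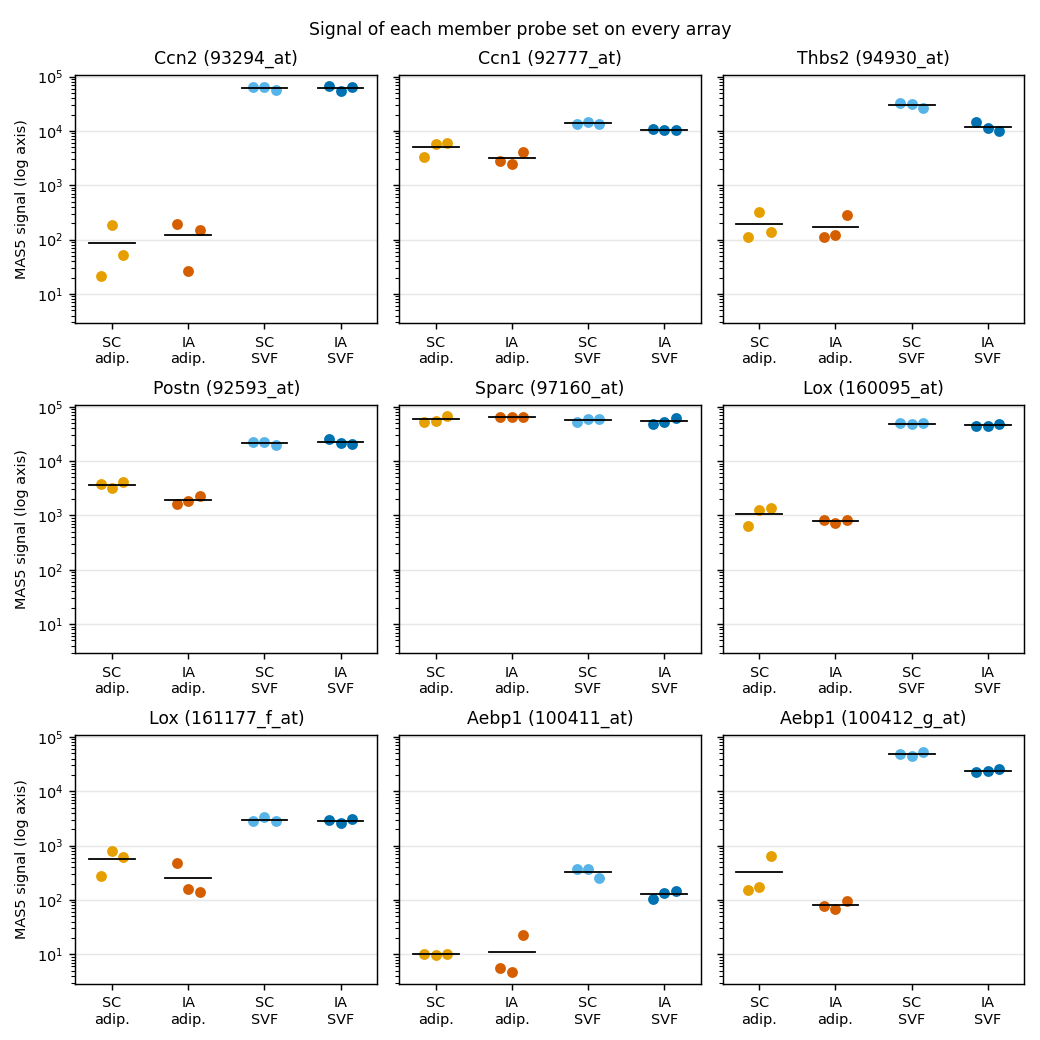
MAS5 signal (log axis) of each of the 9 probe sets on every array, for subcutaneous (SC) and intraabdominal (IA) adipocytes (adip.) and SVF. Points are single arrays and bars are group means (n = 3). Ccn2, Thbs2, Lox and Aebp1 lie low in adipocytes and high in SVF, Ccn1 and Postn differ less, and Sparc lies level over all 4 groups.

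Sparc, a collagen-binding glycoprotein long known to be abundant in fat, stood apart from the rest. It read 52521, 55237 and 67378 in subcutaneous adipocytes, 64403, 65359 and 63823 in intraabdominal adipocytes, 52075, 58406 and 58866 in subcutaneous SVF and 48494, 53329 and 62294 in intraabdominal SVF. The 3 intraabdominal SVF arrays lay below the 3 intraabdominal adipocyte arrays, and the other pairs of groups compared overlapped. The SVF minus adipocyte difference was -0.04 ± 0.13 in subcutaneous and -0.25 ± 0.13 in intraabdominal fat, and it turned to 0.12 and 0.09 with quantile normalization. Sparc therefore went against the description under which these genes were grouped, being neither far higher in SVF nor clearly different by depot. Its signal ranked at or above percentile 99.4 on every array, and whether so bright a probe set could register a further rise was not tested.

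Lox, the enzyme that starts collagen and elastin crosslinking, was measured by 2 probe sets. The brighter (160095_at) read 632, 1233 and 1349 in subcutaneous and 808, 716 and 816 in intraabdominal adipocytes. Its SVF readings were 49486, 47793 and 49234 (subcutaneous) and 44459, 44078 and 48381 (intraabdominal). All SVF arrays stood above all adipocyte arrays and the depots overlapped in both fractions. The fractions differed by 5.53 ± 0.20 (46.1-fold) in subcutaneous and 5.80 ± 0.20 (55.7-fold) in intraabdominal fat, and the SVF depots by 0.10 ± 0.20. The other Lox probe set (161177_f_at), whose suffix marks probes shared with similar sequences, moved the same way but less. It gave means of 565 ± 261 (SD, n = 3) and 259 ± 188 in subcutaneous and intraabdominal adipocytes against 3011 ± 310 and 2844 ± 231 in SVF, or 5.43-fold and 10.8-fold. With the actin ratio as a covariate its subcutaneous difference fell from 2.44 to -0.11, whereas that of 160095_at was 4.53.

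Aebp1 is also a collagen-binding protein when secreted, and is known from preadipocytes as a repressor of a fat cell gene. It was higher in subcutaneous SVF by both its probe sets, and in subcutaneous adipocytes by the brighter alone. Its brighter probe set (100412_g_at) read 154, 176 and 632 in subcutaneous and 77, 67 and 95 in intraabdominal adipocytes. SVF arrays read 48669, 43738 and 51909 (subcutaneous) and 22493, 23515 and 25649 (intraabdominal). Neither fraction's depots overlapped. The subcutaneous minus intraabdominal difference was 1.35 ± 0.33 in adipocytes (2.55-fold) and 1.01 ± 0.33 in SVF (2.01-fold). The adipocyte value leaned on the third subcutaneous array and was 0.78 without it. These adipocyte readings ranked between percentiles 18.6 and 56 of their arrays, and the dimmer ones cannot be told apart from background. Between fractions the difference was 7.30 ± 0.33 (158-fold) in subcutaneous and 7.64 ± 0.33 (200-fold) in intraabdominal fat. With the actin ratio as a covariate these differences were 4.69 and 5.94. Like those of Ccn2, the folds depend on the added constant. The second Aebp1 probe set (100411_at) was left out of the fit by the filter on the lowest 30% of mean signal. It had means of 10.0 and 10.8 in the adipocyte groups, 331 ± 69.4 in subcutaneous SVF and 127 ± 19.7 in intraabdominal SVF. Its SVF depots did not overlap either, but its adipocyte depots did. The adipocyte readings of this probe set ranked between percentiles 0.258 and 4.93 and cannot be told apart from background. It could therefore have missed a depot difference there.

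**Figure D2:**
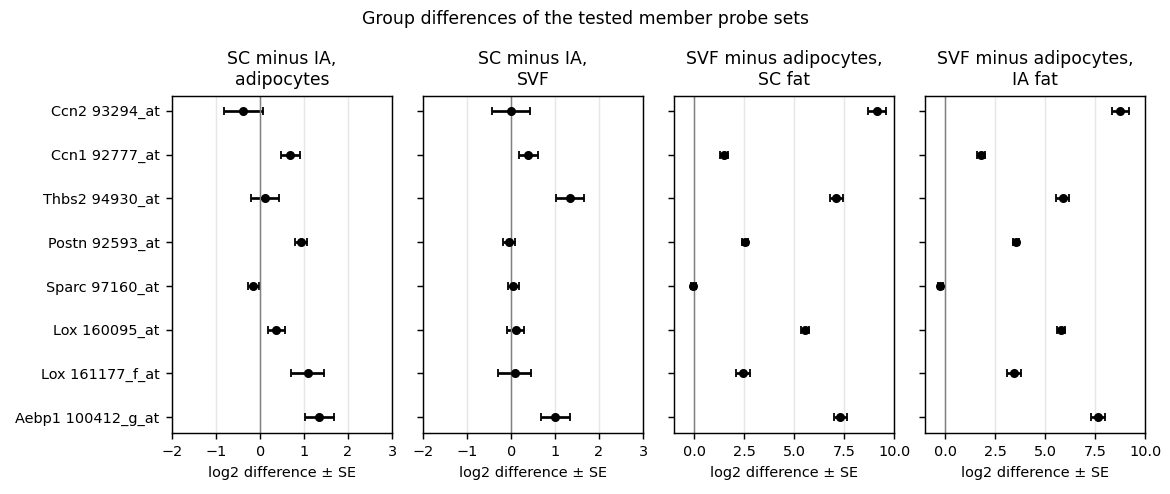
Differences in log2(signal + 40.2) with their SE for the 8 probe sets that passed the filter, in the depot comparisons of adipocytes and SVF (SC minus IA) and the fraction comparisons of SC and IA fat (SVF minus adipocytes); the horizontal scales of depot and fraction panels differ. Fraction differences run from about none for Sparc to 9.14 for Ccn2, and Thbs2 and Aebp1 lead the SVF depot panel.

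These group differences are what the genes were chosen by, so they are given with no test and nothing is read from their counts. In all, 8 of the 9 probe sets passed the filter. Of these, 7 had all SVF arrays above all adipocyte arrays in subcutaneous fat, a pattern of 32.3% of the 8695 probe sets tested, and 7 in intraabdominal fat, against 33.8%. Sparc in intraabdominal fat was the 1 with SVF arrays all below, a pattern of 26.2% of all. SVF arrays all below were seen for 0 of 8 in subcutaneous fat (27.6% of all). All subcutaneous arrays lay above the intraabdominal ones in 2 of 8 in adipocytes (13.6% of all) and in 3 of 8 in SVF (20.5% of all), and below them in 0 of 8 in either (10.7% and 16.8% of all). The median difference of the 8 was 4.04 and 4.67 in the fraction comparisons, beside 0.04 and 0.11 for all tested.

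Scaling mattered most for the adipocyte depots. With each array centred on its median, the median of all probe sets in that comparison moved from 0.07 to -0.15, and Postn moved from 0.93 to 0.71 and Ccn1 from 0.68 to 0.46. Beside the adipocyte depot differences, the actin ratio was 2.35 to 3.10 in subcutaneous and 1.71 to 2.24 in intraabdominal adipocytes. The summed fibroblast markers were 56911 to 82317 and 48013 to 54370, with 3 of 12 called higher in subcutaneous adipocytes and 0 lower. With the actin ratio as a covariate, Aebp1 moved from 1.35 to 2.39. The part of stromal cells carried with adipocytes in the adipocyte readings of these genes was not tested.

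Beside the SVF depot differences of Thbs2 and Aebp1, markers of other cell types also differed. Of 10 smooth muscle and pericyte markers 8 were called lower in subcutaneous SVF (summed signal 36591 to 38798 against 134160 to 158976), among them Cnn1, a contractile protein, with a mean of 110 against 9631. All 5 mesothelial markers tested were lower (772 to 1069 against 6353 to 6571), 7 of 12 macrophage markers were lower and 1 higher (22222 to 22835 against 32170 to 36910), and 6 of 11 endothelial markers were higher (10706 to 12414 against 10433 to 17728). The marker Eng alone made up most of the endothelial sums, at 7397 ± 477 against 11942 ± 3939, so these sums do not follow the count. Of the 12 fibroblast markers 4 were higher and 2 lower (339941 to 371029 against 242680 to 273429). The part of all these cell types in the depot differences was not tested.

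The spread within groups was not used to choose the genes. Around the 4 group means the residual SD (log2) was 0.69 for Ccn2, at percentile 92.3 of all tested probe sets, whose median was 0.29. Most of it came from the dim adipocyte arrays: the SD of Ccn2 was 0.97 and 0.96 in the adipocyte groups and 0.10 and 0.15 in SVF. At the other end stood Sparc (0.14, percentile 7.98) and Postn (0.18, percentile 17.1). Whether the probe sets, which include both of Lox, deviated together from array to array was not tested. On the second intraabdominal SVF array 0 of 8 lay above the group mean, while 49% of all tested probe sets did, although the deviations were small (median -0.06). On the first subcutaneous adipocyte array 1 of 8 lay above the group mean (53% of all tested), with a median deviation of -0.60. The second intraabdominal adipocyte array also had 1 of 8 (48.4% of all tested, median -0.23). On every other array 3 to 6 of 8 lay above it.

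Genes with a pattern most like Ccn2 were sought among 6429 other genes by the mean absolute difference in centred log2 signal over the 12 arrays. The nearest were Tmem45a (0.82), Phldb2 (1.20), Prss23 (1.31), Mmp3 (1.44), Cxcl12 (1.5) and Adam19 (1.54). Tmem45a, a membrane protein, had means of 46.8 ± 13.8 (SD, n = 3) and 177 ± 73.8 in subcutaneous and intraabdominal adipocytes and of 27811 ± 1603 and 22484 ± 1030 in SVF. Mmp3, a matrix protease, reached 68072 ± 3875 in subcutaneous SVF and 14274 ± 1369 in intraabdominal SVF, and the chemokine Cxcl12 reached 33855 ± 3120 and 16848 ± 3802. Measured the same way, the distance from Ccn2 was 0.94 for Aebp1, 1.24 for Thbs2, 1.64 for Lox, 2.95 for Postn, 3.65 for Ccn1 and 4.55 for Sparc. This measure largely restates the difference between fractions by which the genes were chosen, and it rests in part on adipocyte readings of Ccn2 that cannot be told apart from background, so the order is a description only.

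**Figure D3:**
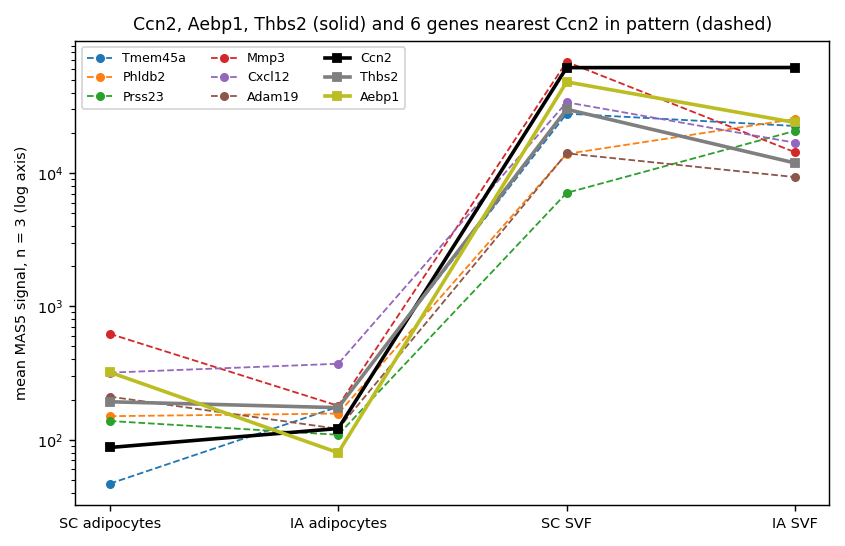
Mean signal (log axis, n = 3 arrays per group) of Ccn2, Thbs2 and Aebp1 (solid lines) and of the 6 genes with the smallest mean absolute difference from Ccn2 (dashed lines) in the 4 groups. All lines are higher in SVF than in adipocytes of the same depot, and Mmp3 shows a wide gap between the SVF depots (68072 against 14274).

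The remaining genes of the pathway were examined as lists, counted by limma with Benjamini-Hochberg adjustment over all 8695 probe sets tested. Of these, 8.13% were called in either direction between the adipocyte depots, 12.9% between the SVF depots, 52.8% and 51.3% between the fractions of subcutaneous and intraabdominal fat, and 8.43% for a depot difference that differed between fractions. Of 16 other matricellular genes tested (of 26 listed), 8 were higher and 4 lower in SVF than in adipocytes of subcutaneous fat, and 10 higher and 4 lower in intraabdominal fat. Across all probe sets 29.4% and 23.5% were called higher and lower in subcutaneous fat, and 29% and 22.4% in intraabdominal fat. The list medians were 0.76 and 1.41. Fbln2, fibulin-2, rose most surely, from 1486 ± 416 to 83473 ± 3920 in subcutaneous fat (56.1-fold, adjusted p = 1.4e-11). Tnc, tenascin-C of injured and growing tissue, rose from 386 ± 174 to 17134 ± 427 there (42.6-fold, adjusted p = 5.13e-10). Of the other CCN genes, 3 were tested and all were higher in SVF: the log2 difference in subcutaneous and intraabdominal fat was 2.55 and 3.08 for Ccn3, 3.88 and 5.75 for Ccn4 and 4.48 and 5.71 for Ccn5. Relatives of Sparc, which share its calcium-binding region, were divided: Fstl1 and Smoc2 were higher in SVF of both depots (log2 2.65 and 4.16 for Fstl1, 0.98 and 1.06 for Smoc2), while Smoc1 and Sparcl1 were lower. Smoc1 fell from 10000 ± 274 to 238 ± 29.8 in subcutaneous fat (36.2-fold, adjusted p = 3.48e-12). The log2 difference of Sparcl1 was -0.89 and -2.49.

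By depot, 3 of these 16 genes were higher in subcutaneous adipocytes and 0 lower (3.97% and 4.16% of all probe sets), among them Thbs3, a thrombospondin, at 577 ± 103 against 151 ± 136 (3.72-fold, adjusted p = 0.00569). In SVF 4 were higher and 3 lower in subcutaneous cells (6.49% and 6.45% of all). Smoc1 was 5.58-fold lower there (238 ± 29.8 against 1512 ± 156, adjusted p = 1.17e-07) and Sparcl1 3.31-fold higher (1164 ± 86.5 against 328 ± 69.8, adjusted p = 3.52e-05). The depot difference itself differed between the fractions for 5 of the 16, with 3 higher and 2 lower in adipocytes minus SVF (3.9% and 4.53% of all). The 3 adipocyte calls dropped to 0 when only adipocyte arrays entered the fit and with the actin ratio as a covariate.

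Collagen processing and crosslinking genes behaved more uniformly. Of 15 tested (of 31 listed) 12 were higher in SVF and 0 lower in subcutaneous fat (29.4% and 23.5% of all probe sets). The numbers were the same in intraabdominal fat (29% and 22.4% of all), and the medians were 1.91 and 1.52. P4ha2 and P4ha1, catalytic chains of the prolyl hydroxylase that stabilises the collagen helix, were 13.7-fold and 12.8-fold higher in subcutaneous and 18.0-fold and 17.0-fold higher in intraabdominal SVF (adjusted p from 1.75e-11 to 8.82e-10). Bmp1, the protease that trims procollagen and activates lysyl oxidase, was higher by 3.88 and 3.17 on the log2 scale. Pcolce, which enhances that trimming, was called in both depot comparisons: 4736 ± 629 against 1721 ± 384 in subcutaneous and intraabdominal adipocytes (2.74-fold, adjusted p = 0.000235) and 47165 ± 2735 against 23473 ± 4815 in SVF (2.04-fold, adjusted p = 0.00111). P4hb, the partner chain of the hydroxylase, was 2.02-fold lower in subcutaneous adipocytes (adjusted p = 0.00529), though another of its probe sets pointed the other way and the call was lost with the actin ratio as a covariate. Loxl1, the lysyl oxidase relative tested, did not pass in any comparison, with a fraction difference of 0.45 ± 0.25 in subcutaneous and -0.11 ± 0.25 in intraabdominal fat, unlike the values of Lox given above. In SVF 3 of 15 were higher in subcutaneous cells and 0 lower (6.49% and 6.45% of all). Cpxm1 and Cpxm2, relatives of Aebp1 in the carboxypeptidase family, were 4.87-fold and 4.16-fold higher there (adjusted p = 0.00026 and 0.000907). With the actin ratio as a covariate the 12 calls of subcutaneous fat became 7.

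Among 11 elastic fibre and microfibril genes, the substrates and partners of Lox, 6 were higher and 3 lower in SVF of subcutaneous fat. Of all probe sets 29.4% and 23.5% were. In intraabdominal fat 6 were higher and 2 lower (29% and 22.4% of all). Eln, elastin itself, was lower in SVF while Lox was higher: it read 3659 ± 93.9 in intraabdominal adipocytes and 787 ± 173 in SVF (4.54-fold lower, adjusted p = 1.09e-07), with a log2 difference of -1.59 in subcutaneous fat. Mfap5, a microfibril protein, was 20.5-fold and 41.9-fold higher in SVF of subcutaneous and intraabdominal fat, though a second Mfap5 probe set pointed the other way in both. Ltbp2, a latent TGF beta binding relative, was 3.26-fold lower in subcutaneous than in intraabdominal SVF (5138 ± 524 against 16952 ± 2994, adjusted p = 0.00995). In that comparison 2 of 11 were higher and 3 lower (6.49% and 6.45% of all probe sets). With the actin ratio as a covariate the 9 calls of subcutaneous fat fell to 1.

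Receptors went both ways between the fractions, as all probe sets did. Of 15 tested, 5 were higher and 8 lower in SVF of subcutaneous fat (29.4% and 23.5% of all probe sets). In intraabdominal fat 6 were higher and 5 lower (29% and 22.4% of all). Itgav, the integrin chain that binds periostin and CCN proteins, was 3.67-fold and 4.31-fold higher in SVF (adjusted p = 2.17e-07 and 6.12e-08). Cd36, the thrombospondin receptor that also takes up fatty acids in fat cells, was 65.9-fold and 21.8-fold lower in SVF (adjusted p = 5.02e-12 and 1.1e-10). Thbs2 and Cd36 thus lay on opposite fractions, with Cd36 at 5551 ± 776 in subcutaneous adipocytes and 44.5 ± 11.2 in subcutaneous SVF. Between the adipocyte depots limma called 0 of 15 receptors (8.13% of all probe sets), with 5 under an unadjusted p of 0.05. In SVF 1 was higher and 3 lower in subcutaneous cells, among them Cd36 (3.21-fold lower, adjusted p = 3.52e-05).

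YAP and TAZ target genes, of which Ccn1 and Ccn2 are the best known, were mostly higher in SVF. Of 13 others tested (of 20 listed) 8 were higher and 1 lower in subcutaneous fat (29.4% and 23.5% of all probe sets). In intraabdominal fat 12 were higher and 0 lower (29% and 22.4% of all), and the medians were 1.47 and 1.81. F3, tissue factor, was 17.5-fold and 12.2-fold higher (adjusted p = 6.46e-12 and 2.42e-11), and Lats2, a kinase that restrains YAP, 5.64-fold and 6.02-fold higher. Between the SVF depots 1 was higher and 6 lower in subcutaneous SVF (6.49% and 6.45% of all). The list median was -0.62, against 0.06 for all tested. The interval of the Ccn2 difference given above contains that list median, but its width comes largely from the dim adipocyte arrays. That interval therefore cannot decide whether Ccn2 shared the shift of the list, and no test set Ccn2 against the list. Within SVF the Ccn2 depots overlapped and differed by 0.00, with SDs (log2) of 0.10 and 0.15. Ccn1 was higher in subcutaneous SVF, by 0.39 ± 0.21, with no overlap. Ankrd1, a nuclear protein of stretched muscle, read 1033 ± 247 against 4996 ± 446 (4.76-fold lower, adjusted p = 0.00265). Igfbp3, a carrier of insulin-like growth factors, was 10.2-fold lower, and Gadd45a, a stress response gene, was 3.23-fold higher. In adipocytes limma called 0 of 13 between the depots (8.13% of all probe sets), with 3 under an unadjusted p of 0.05. The smooth muscle and mesothelial markers given above were also lower in subcutaneous SVF, and their part in the list's difference was not tested. With the actin ratio as a covariate 3 rather than 9 were called in subcutaneous fat.

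**Figure D4:**
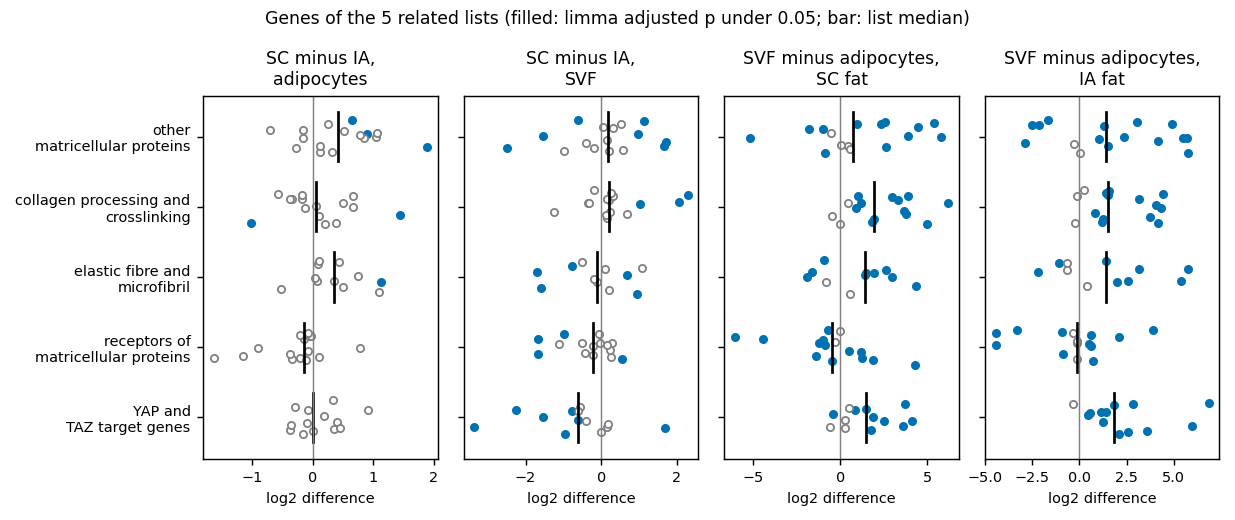
Differences in log2(signal + 40.2) of each gene in the 5 lists, in the depot comparisons (SC minus IA) and the fraction comparisons (SVF minus adipocytes). Filled points passed limma's adjusted p of 0.05, open points did not, and black bars are list medians; the 12 filled collagen processing points of each fraction panel lie above 0 and the filled receptor points lie on both sides.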

How the data were processed

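The authors deposited linear signal intensities, computed with MAS5 per the submitters' processing notes. Its version is not stated, and detection calls were not used here. Trimming 2% at each end left array means whose highest-to-lowest ratio was 1.000167, so the intensities were treated as already scaled. The 66 control probe sets were left out. Of the 12422 left, 10833 had 1 gene symbol in the platform annotation, 396 several and 1193 none here, and 0 symbols needed an update. The fit used log2(signal + 40.2), the constant being the 10th percentile of all values, without the lowest 30% of mean log2 signal, which left 8695 probe sets. A fold is on this scale and understates the change of dim genes. limma 3.58.1 in R 4.3.3 (lmFit, eBayes with trend) fitted 4 group means to all arrays, with 8 residual degrees of freedom, and p-values were Benjamini-Hochberg adjusted over all tested. The steps were tested on simulated data. No 2 arrays were identical (0 pairs).

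The genes and lists were chosen with earlier results of these data known. Named are all probe sets of the chosen genes, up to 3 called list genes of smallest p per comparison (the text takes part), and, picked after their values were seen, CCN and SPARC relatives, Bmp1, Loxl1 and Cnn1, and the 6 genes most like Ccn2. A gene's probe set of highest mean stood for it in lists. The number of arrays limits the precision. Alternatives were other constants, filters and scalings, array weights, fits to fewer arrays, a replicate block and the actin ratio as a covariate. Replicate numbers did not pair the arrays: same-numbered arrays of different groups correlated in their deviations between -0.09 and 0.11.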

Additional observations from a re-analysis of the deposited data

Results flagged for a closer look

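Listed genes whose depot difference in adipocytes differed from that in SVF by limma's interaction test are given here, up to 3 per list (3.9% of all probe sets were called higher and 4.53% lower). The value is the adipocyte depot difference minus the SVF depot difference on the log2 scale, ± SE. In matricellular relatives it was 2.32 ± 0.23 for Smoc1 (adjusted p = 1.64e-05), 1.51 ± 0.25 for Fstl1 (adjusted p = 0.00134) and -1.60 ± 0.28 for Sparcl1 (adjusted p = 0.00233). Fstl1 was higher in subcutaneous than in intraabdominal adipocytes (1365 ± 249 against 708 ± 44.7) and lower in subcutaneous SVF (8685 ± 318 against 13512 ± 2998).

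For collagen processing it was -1.16 ± 0.27 for P4hb (adjusted p = 0.0162), with another P4hb probe set pointing the other way, -1.79 ± 0.47 for Cpxm1 (adjusted p = 0.03) and -0.59 ± 0.17 for Ppib (adjusted p = 0.0399). The last pair are fragile: the call of Ppib was lost in 12 of 21 alternatives and that of Cpxm1 in 9. The Cpxm1 value also rests on dim adipocyte readings that cannot be told apart from background. Their means were 139 ± 60.4 in subcutaneous and 94.9 ± 79.8 in intraabdominal fat. The calls of P4hb and Ltbp2 were lost with the actin ratio as a covariate. For microfibril genes it was 2.80 ± 0.56 for Ltbp2 (adjusted p = 0.00557) and 0.80 ± 0.21 for Ltbp4 (adjusted p = 0.0277), the latter lost in 10 of 21 alternatives. Among them, leaving out single arrays ended the call of Ppib (any array except replicate 3 of subcutaneous adipocytes, of intraabdominal adipocytes and of intraabdominal SVF), of Cpxm1 (replicate 1 of subcutaneous adipocytes or any SVF array) and of Ltbp4 (replicate 1 or 3 of intraabdominal adipocytes, replicate 2 or 3 of subcutaneous SVF or any intraabdominal SVF array).

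Among receptors it was 1.60 ± 0.28 for Cd36 (adjusted p = 0.00197) and 1.34 ± 0.25 for Fgfr2 (adjusted p = 0.00302). In YAP and TAZ targets it was 3.28 ± 0.31 for Igfbp3 (adjusted p = 1.11e-05), 0.96 ± 0.19 for Ccdc80 (adjusted p = 0.00449) and -1.34 ± 0.24 for Gadd45a (adjusted p = 0.00233). Ccdc80, a matrix protein, read 4501 ± 430 against 3552 ± 238 in subcutaneous and intraabdominal adipocytes and 3417 ± 373 against 5282 ± 553 in SVF.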

How the results depend on the processing

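Of 872 recomputed values of the chosen probe sets 830 moved by less than the spread between replicates and 41 by more. The remaining 1, the subcutaneous fraction difference of Lox probe set 161177_f_at, went from 2.44 to -0.11 with the actin ratio as a covariate. The sign changed in 30 of the 872, that one included, and the others were changes of differences of at most 0.38 in size (log2). That ratio separates the fractions, so the covariate and the fraction are hard to part. With it, calls higher and lower fell to 53 and 44 in the adipocyte depot comparison (345 and 362 in the report's fit), 557 and 501 in the subcutaneous fraction comparison (2554 and 2041), 1238 and 935 in the intraabdominal one (2518 and 1944) and 175 and 228 in the interaction (339 and 394). List calls in either direction became, in the order other matricellular, collagen processing and elastic fibre, 0, 1 and 0 between adipocyte depots, 6, 7 and 1 between subcutaneous fractions and 3, 0 and 0 in the interaction. Receptor calls became 5 between subcutaneous and 7 between intraabdominal fractions, and YAP and TAZ target calls 3 between subcutaneous fractions.

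Centring each array on its median gave 172 higher and 786 lower between adipocyte depots (18% higher, against 48.8%), with 0 elastic fibre, 3 receptor and 2 YAP and TAZ calls, and 1 elastic fibre call in the interaction. It also put 42.8% of SVF depot calls (50.1% as deposited), 47.7% of intraabdominal fraction calls (56.4%) and 32.9% of interaction calls (46.2%) on the higher side. Quantile normalization gave 0 elastic fibre and 1 receptor call between adipocyte depots and 5 collagen processing calls between SVF depots. Array weights gave 216 higher between adipocyte depots and 1008 higher and 944 lower between SVF depots (564 and 561), with 6 collagen processing calls. Fits to only the groups compared gave 123 and 176 between adipocyte depots, with 0 matricellular, 0 elastic fibre and 1 receptor call, and 6 collagen processing calls between SVF depots. The 25th percentile as constant gave 2 receptor calls between adipocyte depots, no filter 1, and the 50% filter 5 elastic fibre calls between intraabdominal fractions. The replicate block gave 1 elastic fibre call in the interaction and moved no other count by over 1.5 times. Except where stated, the causes were not tested.

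Leaving out 1 array gave 169 to 550 higher and 196 to 423 lower between adipocyte depots: without intraabdominal adipocyte replicate 1 the counts were 172 and 200, without replicate 2 they were 169 and 196, and without replicate 3 the higher count was 550. List calls then ran from 2 to 4 (collagen processing), 0 to 3 (elastic fibre), 0 to 2 (receptors) and 0 to 1 (YAP and TAZ) between adipocyte depots. Between SVF depots they ran from 3 to 5 (collagen processing), 2 to 5 (elastic fibre) and 2 to 5 (receptors). In the interaction they ran from 3 to 5 (matricellular), 1 to 5 (collagen processing), 1 to 4 (elastic fibre) and 2 to 4 (receptors). Of 1390 recomputed calls of named list genes 69 were lost and 0 turned.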
